A study of Mus musculus with 6 samples.

Results

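The BCL2 family decides at the mitochondrion whether a blood cell lives or dies, and 10 of its genes were followed here in mouse leukaemia cells: Bcl2, Bcl2l1, Mcl1, Bcl2l2, Bax, Bak1, Bcl2l11, Bbc3, Pmaip1 and Bid. They were chosen by gene symbol from a table of 53819 genes, and all 10 had a row and passed the filter on low counts. The leukaemia was made with BCR-ABL together with NUP98-HOXA9, fusion genes that model blast-crisis chronic myeloid leukaemia (bcCML) in mice, and RNA came from leukaemia cells sorted out of the spleens of transplanted mice. There were 3 libraries labelled SLC6A6 KO (KO1 to KO3) and 3 labelled SLC6A6 WT (WT1 to WT3); both groups carry the same pair of fusion genes. Slc6a6 codes for the cell's importer of taurine, and the question is what differs in the leukaemia when it is lost. The series title says knock-down where the labels say KO. The labels do not give the allele, the age or sex of the mice or the sorting marker, nor do they say that each library is a mouse of its own, so the p-values rest on the spread among 3 libraries a group, which may be technical. Wherever 3 values of a group are listed, they follow the order KO1, KO2, KO3 or WT1, WT2, WT3.

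The family has 3 kinds of protein. The guardians BCL2, BCL-XL (from Bcl2l1), MCL1 and BCL-W (from Bcl2l2) hold the outer mitochondrial membrane closed by binding the other members. The effectors BAX and BAK (from Bak1) form the pores that release cytochrome c, and the BH3-only proteins BIM (from Bcl2l11), PUMA (from Bbc3), NOXA (from Pmaip1) and BID carry death signals by occupying guardians or by switching on the effectors. In myeloid cells and leukaemias MCL1 is a main survival factor, in maturing erythroid cells BCL-XL takes that part, and BCR-ABL is known to raise BCL-XL through STAT5 and to hold BIM down.

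Library totals lay between 42829294 and 44902511 counts in KO and between 44950191 and 49537098 in WT, so depth was close to even. Levels are given as CPM, read counts scaled to library size with TMM, a method that evens out differences in library composition. Slc6a6 itself was at 125 to 133 CPM in KO, against 145 to 151 CPM in WT (log2 fold change −0.18 ± 0.07, SE; adjusted p = 0.196 in edgeR's quasi-likelihood test), so its level does not check the genotype and the groups are called by their labels. A set of 4 Y-linked genes had 10274 to 11236 counts in each KO library, against 0, 0 and 1 count in WT, so the sex of the cells cannot be told apart from the label in any result below. Transcripts of 13 erythroid markers summed to between 8017 and 27990 CPM in KO, against 2640 to 11216 CPM in WT. Of the myeloid markers, Ptprc (CD45) was present in every library, at 87.2 to 131 CPM in KO and 50.1 to 148 CPM in WT. Mpo and Elane, granule genes of immature myeloid cells, and Cebpa had 0 counts in KO1. Mpo was at 1.65 CPM in KO2 and 21.8 in KO3, and Elane at 0.435 and 13.8. In KO3 both were above WT2 and WT3 and below WT1. Cebpa was at most 0.812 CPM in any library. The 10 myeloid leukaemia markers summed to 225 to 283 CPM in KO and 149 to 395 CPM in WT, and 1 of them, Kit, rose. Log2 fold changes were positive in 3 of the 10 and negative in 7, with a median of −0.59. At an unadjusted p below 0.05, 1 was higher and 2 lower (11.6% and 10.4% of all genes). Kit lay above WT without overlap and Cd34 below it, each 1 of 10 (13.6% and 14.4% of all genes). Cd34 was at 0.878, 2.42 and 1.53 CPM in KO, against 16.9, 3.14 and 5.08 CPM in WT (adjusted p = 0.114 in edgeR).

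The libraries labelled KO held more Bcl2l1 and, short of the threshold, less Bcl2, Bcl2l2, Pmaip1 and Bid than the libraries labelled WT, while Mcl1 was nearly the same. In edgeR's quasi-likelihood test with Benjamini-Hochberg adjustment over 15232 genes, 1 of the 10 members was higher in KO at an adjusted p below 0.05, where 1.64% of all genes were. None of the 10 was lower, where 1.92% of all genes were. At an unadjusted p below 0.05, 2 members were higher and 4 lower (11.6% and 10.4% of all genes). At its adjusted p DESeq2 also called 2 higher and 4 lower, where it called 7.06% and 6.05% of all genes, and limma-voom called 0 in either direction, where it called 1.34% and 1.62%. The groups did not overlap in 1 member with KO above WT (13.6% of all genes) and in 4 with KO below WT (14.4% of all genes). The median log2 fold change of the 10 was −0.28, beside 0.01 over all genes tested.

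**Figure D1:**
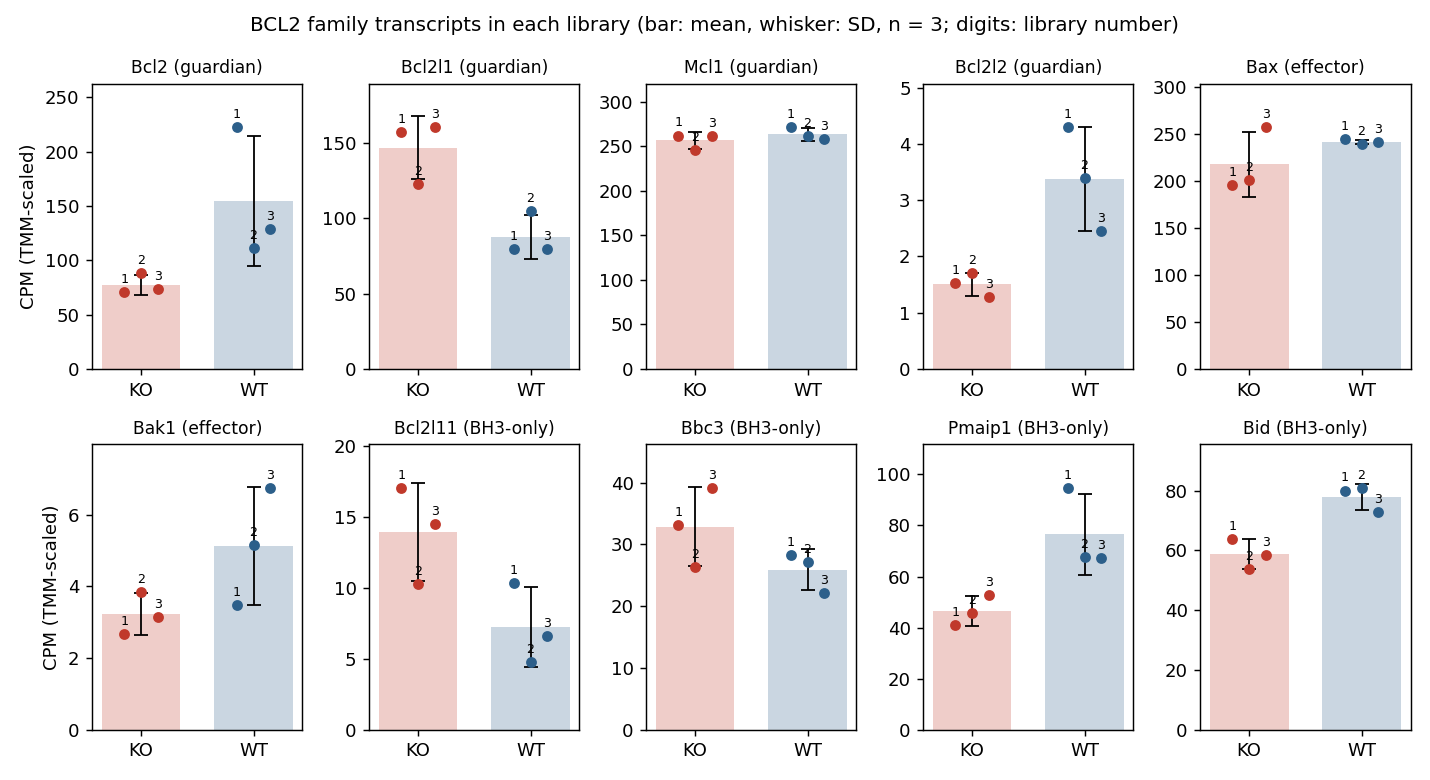
CPM of each of the 10 members in each library (points, numbered by library), with KO on the left and WT on the right of each panel; bars are means of 3 libraries and whiskers SD. KO lies above WT without overlap for Bcl2l1 and below it without overlap for Bcl2, Bcl2l2, Pmaip1 and Bid, and the Mcl1 points lie between 246 and 271 CPM in all 6 libraries.

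Among the guardians, Bcl2l1 was the member that rose. It was measured at 157, 123 and 161 CPM in KO, against 79.4, 105 and 79.5 CPM in WT. All KO libraries were above all WT libraries, and the nearest were KO2 and WT2. Bcl2l1 was 1.67-fold higher in KO (log2 fold change 0.74 ± 0.15, SE, n = 3 against 3; adjusted p = 0.0494 in edgeR). The call sat at the threshold. With DESeq2-style (RLE) scaling in edgeR the adjusted p was 0.0515, with limma-voom 0.0517, and of the 6 fits that left out 1 library it held only without KO2 (adjusted p = 0.0416) and was lost without KO1 (0.151), KO3 (0.153), WT1 (0.116), WT2 (0.0521) or WT3 (0.191). The gene lies at chr2:152780668-152831728 on the minus strand (GRCm38) with 9 annotated transcripts in GENCODE M21, and counts per gene cannot separate the long, protective form BCL-XL from the short form BCL-XS.

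Bcl2, the founding guardian, stood the other way. It had 70.9, 88.1 and 73.1 CPM in KO, against 222, 111 and 129 CPM in WT. The groups did not overlap, and WT1 stood far above every other library. The log2 fold change was −0.99 ± 0.26 (SE), with an adjusted p of 0.0841 in edgeR, so Bcl2 did not pass the test. Without WT1 the log2 fold change was −0.65 (adjusted p = 0.0683), and DESeq2 gave an adjusted p of 0.00173 with all 6 libraries. Bcl2 lies at chr1:106538178-106714274 on the minus strand (GRCm38), and 6.09% of its exonic bases lie opposite exons of D630008O14Rik, which had 2 to 26 counts in KO and 5 to 40 in WT.

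The start of each of these genes is shown because these 2 abundant guardians lay in opposite directions. The sequences are the 250 bases before the outermost start that RefSeq gives on the GRCm38.p6 build, read along the gene's strand; neither window overlaps an annotated exon of its gene, and no capitals appear because none of the 6 motifs searched (below) was found in them.
Bcl2 (chr1:106714291-106714540, minus strand): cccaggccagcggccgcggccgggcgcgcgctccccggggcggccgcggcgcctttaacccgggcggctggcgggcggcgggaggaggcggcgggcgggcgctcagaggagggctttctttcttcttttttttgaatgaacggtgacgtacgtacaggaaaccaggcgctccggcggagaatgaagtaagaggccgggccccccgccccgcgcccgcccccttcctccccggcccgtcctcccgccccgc
Bcl2l1 (chr2:152831729-152831978, minus strand): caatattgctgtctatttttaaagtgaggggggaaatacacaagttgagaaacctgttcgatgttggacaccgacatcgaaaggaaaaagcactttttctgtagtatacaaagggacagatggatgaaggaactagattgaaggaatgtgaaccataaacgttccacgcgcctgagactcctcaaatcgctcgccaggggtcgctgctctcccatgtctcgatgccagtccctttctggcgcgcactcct
The windows differ in make-up. The Bcl2 window is 74.8% G and C with 36 CpG pairs, and the Bcl2l1 window 47.6% with 12, beside a median of 52.4% G and C over 32851 windows of the same length.

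Mcl1, the guardian with the shortest-lived protein, was even across the libraries. Its level was 262, 246 and 262 CPM in KO, and 271, 261 and 258 CPM in WT. The groups overlapped, the coefficient of variation was 3.57% in KO and 2.73% in WT, and the log2 fold change was −0.04 ± 0.07 (SE; adjusted p = 0.796 in edgeR). Bcl2l2 was the scarcest guardian, with 53 to 78 counts in each KO library and 111 to 217 in each WT library. That is 1.53, 1.70 and 1.28 CPM in KO, against 4.30, 3.39 and 2.45 CPM in WT. All KO libraries were below all WT libraries, and the log2 fold change of −1.17 ± 0.34 (SE) did not pass edgeR's test (adjusted p = 0.108). In GENCODE M21, 13.3% of the exonic bases of Bcl2l2 are shared with Gm20521, a gene on the same strand that was listed at 0 counts in every library; no source used here states how reads in shared bases were counted, so the level of Bcl2l2 is uncertain.

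Neither effector passed the test, and in both the groups overlapped. Bax was at 195, 200 and 257 CPM in KO, and at 244, 239 and 241 CPM in WT. KO1 and KO2 were below the WT libraries and KO3 above them, so the groups overlapped, and the spread was far wider in KO (coefficient of variation 15.8%) than in WT (0.970%). The log2 fold change of Bax was −0.15 ± 0.11 (SE; adjusted p = 0.502 in edgeR). Bax shares 12.2% of its exonic bases with Gm45808 on the same strand, listed at 0 counts in every library, so its level too is uncertain. Bak1 was low, at 2.68, 3.83 and 3.15 CPM in KO, and at 3.47, 5.14 and 6.74 CPM in WT. WT1 lay inside the KO range, and the log2 fold change of −0.67 ± 0.33 (SE) did not pass the test (adjusted p = 0.292). The library chemistry does not mark strand, and 25.5% of the exonic bases of Bak1 lie opposite exons of Ggnbp1, which had 7 to 22 counts in KO and 22 to 29 in WT, beside 119 to 176 and 175 to 305 counts of Bak1.

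The 4 BH3-only genes were split, with Pmaip1 and Bid lower in every KO library than in any WT library and Bcl2l11 and Bbc3 leaning the other way with overlap; none passed edgeR's test. Pmaip1, which encodes NOXA, the partner that marks MCL1 for destruction, was at 41.0, 45.5 and 52.6 CPM in KO, against 94.7, 67.7 and 67.1 CPM in WT. WT1 was again the highest library. The log2 fold change was −0.72 ± 0.17 (SE; adjusted p = 0.0655 in edgeR), and it passed in 3 of 14 alternative fits: DESeq2 (adjusted p = 0.00194), no filter on low counts (0.0470) and a filter that asks 3 libraries for 1 CPM or more (0.0491).

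Bid encodes the protein that caspase-8 cuts to carry death-receptor signals to mitochondria. It had 63.8, 53.9 and 58.4 CPM in KO, against 80.0, 80.9 and 72.9 CPM in WT. The values were tight in both groups and did not overlap, with a log2 fold change of −0.41 ± 0.10 (SE; adjusted p = 0.0716 in edgeR, 0.00859 in DESeq2). Exons of Bcl2l13, the gene on the opposite strand, cover 17.7% of the exonic bases of Bid, and Bcl2l13 was at 125 to 197 CPM in KO and 132 to 151 CPM in WT, so part of the Bid reads could belong to it.

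Bcl2l11 encodes BIM, the activator that kinase signalling from BCR-ABL keeps low. It was at 17.0, 10.3 and 14.5 CPM in KO, and at 10.3, 4.76 and 6.61 CPM in WT. KO1 and KO3 were above every WT library, and KO2 was level with WT1. The log2 fold change was 0.95 ± 0.33 (SE; adjusted p = 0.161 in edgeR, 0.0452 in DESeq2). Bbc3, which encodes the p53 target PUMA, was at 33.1, 26.4 and 39.1 CPM in KO, and at 28.4, 27.2 and 22.1 CPM in WT, with KO2 inside the WT range. Its log2 fold change was 0.35 ± 0.18 (SE; adjusted p = 0.316 in edgeR). Both genes leaned the same way in these libraries and are known targets of FOXO3, and windows of 250 bases before a RefSeq start of each (GRCm38.p6) are printed because they hold the FOXO motif. Windows before other starts of both genes held no FOXO motif, and a part of FOXO3 in these values was not tested.
Bcl2l11 (chr2:128125788-128126037, plus strand): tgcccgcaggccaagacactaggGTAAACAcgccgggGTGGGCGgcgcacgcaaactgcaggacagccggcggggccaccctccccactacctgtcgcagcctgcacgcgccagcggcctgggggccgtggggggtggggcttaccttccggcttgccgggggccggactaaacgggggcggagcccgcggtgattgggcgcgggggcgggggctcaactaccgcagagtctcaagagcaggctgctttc
Bbc3 (chr7:16310011-16310260, plus strand): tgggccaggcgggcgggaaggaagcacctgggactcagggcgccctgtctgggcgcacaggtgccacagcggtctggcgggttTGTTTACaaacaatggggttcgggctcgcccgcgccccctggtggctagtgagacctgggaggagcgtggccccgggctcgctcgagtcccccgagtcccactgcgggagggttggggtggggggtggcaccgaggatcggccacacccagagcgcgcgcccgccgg
Capitals mark motif matches. In Bcl2l11 the first run is the FOXO motif TGTTTAC on the opposite strand, beginning 227 bases before the start, and the second is the EGR motif GTGGGCG, 213 bases before it; in Bbc3 the run is TGTTTAC, 167 bases before the start.

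The motif search took 6 patterns on both strands of 14 windows of 9 members. Windows on chromosome 18, where Pmaip1 lies, were left out, so Pmaip1 has none here. TGTTTAC was found in the windows just shown and in 3.17% of all 32851 windows, and GTGGGCG in the Bcl2l11 window shown and in 7.02% of all. The E2F motif TTTCGCGC lay before another start of Bcl2l1, on the opposite strand and 145 bases from it (0.256% of all windows), and the GATA motif AGATAA before yet another (9.99% of all windows); those windows lie inside exons of other Bcl2l1 transcripts and are not printed. The E-box CACGTG was found in a window of Bax and of Bbc3 (6.02% of all windows), and the STAT motif TTCNNNGAA in none of the 14 windows (7.02% of all windows). No matches overlapped. A match is a run of letters and not evidence of binding.

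**Figure D2:**
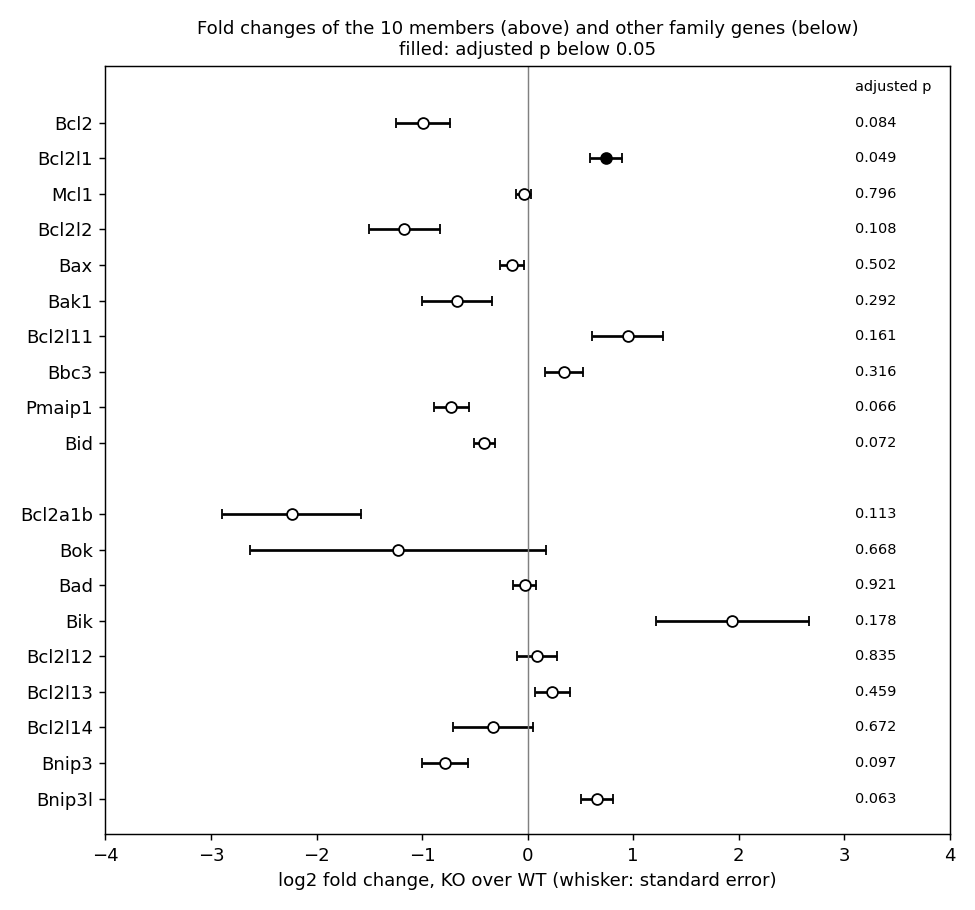
Log2 fold changes, KO over WT, of the 10 members and of the 9 other family genes that passed the filter on low counts; whiskers are standard errors, the adjusted p of edgeR's test is at the right, and a filled point is past 0.05. Bcl2l1 is the single filled point, at 0.74.

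Because a ratio of counts inside a library does not depend on scaling, 6 pairs of members were also compared within each library. Bcl2l1 over Bcl2 was 2.22, 1.40 and 2.20 in KO, against 0.357, 0.941 and 0.618 in WT. Every KO library therefore had more reads of Bcl2l1 than of Bcl2, and every WT library fewer. Reads also depend on gene length, and the exons span 9.157 kb in Bcl2 and 4.586 kb in Bcl2l1. Per kb, Bcl2l1 was above Bcl2 in WT2 (22.8 against 12.1 CPM) and WT3 (17.3 against 14.1) too. In WT1 it was below (17.3 against 24.3). The mean log2 ratio was 0.92 ± 0.38 in KO and −0.76 ± 0.70 in WT (SD, n = 3 each), a 3.20-fold difference. It stayed between 1.31 and 2.01 on the log2 scale when any 1 library was left out.

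The balance of guardians against Bax differed in opposite directions for those 2 guardians and was near level for Mcl1. Bcl2 over Bax was 0.363, 0.440 and 0.285 in KO, against 0.912, 0.464 and 0.535 in WT. The groups did not overlap, though KO2 and WT2 were close. Bcl2l1 over Bax was 0.806, 0.614 and 0.625 in KO, against 0.326, 0.437 and 0.330 in WT, without overlap. Mcl1 over Bax was 1.34, 1.23 and 1.02 in KO, and 1.11, 1.09 and 1.07 in WT, so KO spanned the whole WT range.

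Ratios of death genes to the guardians they bind differed as well. Bcl2l11 over Bcl2 was 0.240, 0.116 and 0.199 in KO, against 0.0463, 0.0429 and 0.0513 in WT. This pair combined a higher numerator with a lower denominator in KO, and its 3.79-fold difference was the largest of the 6 pairs. Pmaip1 over Mcl1 was 0.156, 0.185 and 0.201 in KO, against 0.349, 0.259 and 0.260 in WT, and here the groups did not overlap either. These ratios are of reads and were not tested, and an exact two-sided permutation test of 3 against 3 cannot go below 0.10. The pairs share members, and each pair without overlap holds Bcl2, Bcl2l1 or Pmaip1, which did not overlap on their own. No share over other pairs of genes was taken.

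**Figure D3:**
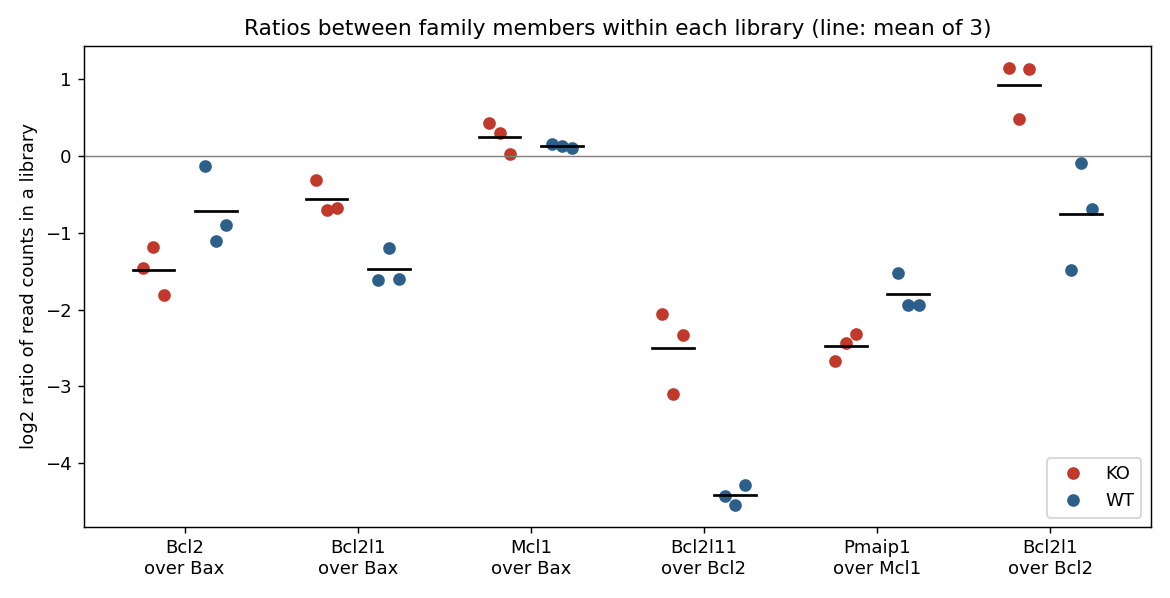
Log2 ratio of read counts for 6 pairs of members, 1 point per library, with KO on the left and WT on the right of each pair and lines at the means of 3. KO and WT are apart for 5 pairs, each with a member that did not overlap on its own, and overlap for Mcl1 over Bax. Bcl2l1 over Bcl2 lies above 0 in all KO libraries and below 0 in all WT libraries, in reads not divided by gene length.

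Levels of different genes can be compared only per length, and were divided by the exonic length of each gene in GENCODE M21 (CPM per kb). Bax was the most abundant member, at 138 ± 21.7 CPM per kb in KO and 153 ± 1.49 in WT (SD, n = 3 each). Mcl1 came next, at 75.1 ± 2.68 in KO and 77.1 ± 2.10 in WT. The next place differed between the groups: in KO it was Bcl2l1, at 32.1 ± 4.52 CPM per kb against 19.2 ± 3.16 in WT, and in WT it was Pmaip1, at 17.0 ± 2.15 in KO and 28.0 ± 5.77 in WT. In KO the levels of Pmaip1, Bid (16.5 ± 1.39) and Bbc3 (15.5 ± 3.01) lay within their spread of each other. Bcl2 followed at 8.45 ± 1.02 CPM per kb in KO, against 16.8 ± 6.53 in WT. Bcl2l11, Bak1 and Bcl2l2 were all below 3 CPM per kb in every library. With the length of the longest transcript in place of all exons, a choice made after seeing the data, Bcl2l1 stood at 57.2 CPM per kb in KO and 34.2 in WT. It then ranked next after Mcl1 in WT as well. Bax, Mcl1, Bcl2, Bcl2l11, Bak1 and Bcl2l2 kept their places in both groups.

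Of the summed guardian transcripts per length, Mcl1 made up 63.9% to 66.1% in KO and 65.1% to 70.2% in WT. Bcl2l1 made up 28.8%, 24.7% and 29.2% in KO, against 14.2%, 20.3% and 16.2% in WT. Bcl2 made up 6.50%, 8.84% and 6.66% in KO, against 19.9%, 10.8% and 13.1% in WT. The largest guardian share was thus Mcl1 in all 6 libraries, with Bcl2l1 second in every KO library and in WT2 and WT3, and Bcl2 second in WT1. These shares depend on the length taken for Bcl2l1. With the longest transcript Bcl2l1 made up 41.3%, 36.2% and 41.8% in KO, against 21.7%, 30.5% and 24.8% in WT, Mcl1 51.2% to 54.3% in KO and 55.8% to 60.4% in WT, and in WT1 Bcl2 and Bcl2l1 were level at 21.7%.

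Erythroid transcripts ranked the libraries in much the same order as Bcl2l1 and in much the reverse order of Bcl2. The 13 markers, among them the globin genes and Alas2, summed to 24629, 8017 and 27990 CPM in KO, and to 2640, 11216 and 6236 CPM in WT; all 13 had a positive log2 fold change, 0 passed edgeR's test (8 at an unadjusted p below 0.05, 1 in DESeq2, 0 in limma-voom), and none was at 0 in any library. Over all genes, 11.6% were higher at an unadjusted p below 0.05 and DESeq2 called 7.06% higher. KO1 and KO3 had the most erythroid transcripts, the most Bcl2l1 and the least Bcl2, and WT1 had the fewest erythroid transcripts and the most Bcl2. KO2 went against this order: it had fewer erythroid transcripts than WT2, yet 123 CPM of Bcl2l1 against 105 in WT2 and 88.1 CPM of Bcl2 against 111 in WT2. The part of erythroid cells in the guardian differences was not tested, and in sorted bulk samples a different mix of cells and a different amount of RNA per cell cannot be told apart.

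**Figure D4:**
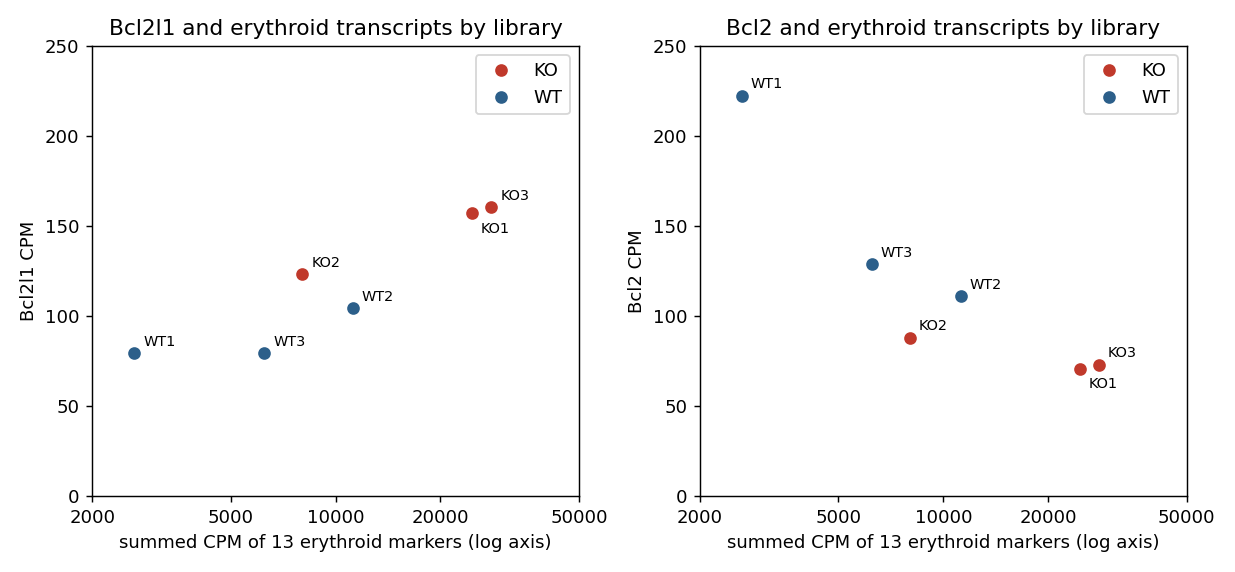
Bcl2l1 (left) and Bcl2 (right) in CPM against the summed CPM of 13 erythroid markers on a log axis, 1 point per library. KO1 and KO3 lie at the right, WT1 at the left, and KO2, at 8017 CPM of erythroid transcripts, lies above WT2 for Bcl2l1 and below it for Bcl2.

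The lists of other cell types hold fewer markers than the erythroid one, and their sums were below the erythroid sum in each library. Lymphocytes are known for high Bcl2, and the 12 T and NK cell markers summed to 21.3 to 46.7 CPM in KO and 14.6 to 21.5 CPM in WT (6 of 11 tested rose, and 2, 5 and 4 markers were at 0 in WT1, WT2 and WT3, beside 1 in KO2). The 8 B cell markers summed to 63.2 to 166 CPM in KO and 5.47 to 43.3 CPM in WT (2 of 7 tested rose). Of those 7, 6 were higher at an unadjusted p below 0.05, 3 in DESeq2 and 2 in limma-voom, and 0 were lower. The B cell sums did not overlap, and the T and NK cell sums did, with KO2 just below WT3. Much of both of those sums was Lck, at 10.7 CPM in KO2 and 18.4 CPM in WT3 (log2 fold change −0.06). Marker by marker, 9 of the 11 tested T and NK cell genes lay above WT without overlap and 0 below. The other 2, Lck and Klrb1c, had negative log2 fold changes and overlapped. The 8 macrophage markers summed to 46.4 to 137 CPM in KO and 16.3 to 31.5 CPM in WT, with 2 of 8 that rose and none at 0. At an unadjusted p below 0.05, 6 of these 8 were higher and 0 lower (11.6% and 10.4% of all genes). DESeq2 called 6 higher and limma-voom 1, and neither called any lower. The 8 neutrophil markers summed to 13.9 to 205 CPM in KO and 104 to 740 CPM in WT, and WT1, the library with the most Bcl2 and Pmaip1, was the highest; 0 of 7 tested passed edgeR's test (3 lower at an unadjusted p below 0.05, 2 in DESeq2, 0 in limma-voom). The 6 megakaryocyte markers summed to 617 to 946 CPM in KO and 941 to 1628 CPM in WT, again with WT1 highest, and Pf4 fell while Vwf rose. At an unadjusted p below 0.05, 1 of these 6 was higher and 3 lower. DESeq2 also called 1 and 3, and limma-voom 1 and 1. For each list in this paragraph, the shares over all genes were 11.6% higher and 10.4% lower unadjusted. At its adjusted p edgeR called 1.64% and 1.92% of all genes, DESeq2 7.06% and 6.05%, and limma-voom 1.34% and 1.62%. The part of these cells in the results was not tested.

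By Pearson correlation of log2 CPM over the 6 libraries, the genes most like Bcl2l1 among 8855 genes of at least 10 CPM were Gab1, Stxbp4 and Sema4b, all at r = 0.99. Gab1 encodes an adaptor of receptor tyrosine kinases and was at 17.8, 10.2 and 21.2 CPM in KO, against 4.14, 5.94 and 3.74 CPM in WT. With 6 points that share their library and group, 133 genes had r above 0.95, so this likeness is a description.

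Of 15 other genes of the family, 9 were measured above the filter, and 0 of the 9 passed edgeR's test (2 higher and 2 lower at an unadjusted p below 0.05, 1 and 1 in DESeq2, 0 in limma-voom; median log2 fold change −0.03). Over all genes the shares were 11.6% and 10.4% unadjusted and 7.06% and 6.05% in DESeq2. The smallest p-values of the 9 belonged to a pair of mitophagy receptors that differed in opposite directions. Bnip3l (NIX), which clears mitochondria from maturing red cells, was at 183, 138 and 205 CPM in KO, against 101, 120 and 111 CPM in WT (adjusted p = 0.0634). Bnip3, a hypoxia-induced relative, was at 4.77, 5.20 and 3.93 CPM in KO, against 8.26, 7.75 and 7.94 CPM in WT (adjusted p = 0.0974). Bnip3l put the 6 libraries in the same order as Bcl2l1, with KO3 highest and WT1 lowest. Bcl2a1b, which encodes the guardian A1, was below 1 CPM in every library, and reads of its near-identical copies Bcl2a1a and Bcl2a1d could be split between them. The BH3-only genes Hrk, with 0 counts, and Bmf, with 0 to 12, were too low to test.

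Downstream of the pore act the apoptosome, the caspases and their inhibitors. Of 18 such genes tested 0 passed, and the median log2 fold change was −0.01. Unadjusted p-values below 0.05 were found for 2 higher and 2 lower genes (11.6% and 10.4% of all genes). DESeq2 called 1 higher (7.06% of all genes) and limma-voom 0. Cycs, cytochrome c, had the smallest p, at 104, 110 and 108 CPM in KO, against 121, 148 and 131 CPM in WT (adjusted p = 0.120). Birc5, which encodes survivin, a protein of dividing cells, was at 316, 251 and 370 CPM in KO, against 183, 251 and 223 CPM in WT, with KO2 level with WT2 (adjusted p = 0.140).

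Of 11 death-receptor genes tested 0 passed (2 higher and 0 lower at an unadjusted p below 0.05, 1 higher in DESeq2, 0 in limma-voom; median log2 fold change 0.09). Tnfsf10, the ligand TRAIL, was at 11.2, 14.8 and 8.68 CPM in KO, against 6.87, 3.12 and 3.71 CPM in WT (adjusted p = 0.0954). Fas, the receptor, was at 9.07, 8.47 and 12.4 CPM in KO, against 8.08, 4.89 and 4.47 CPM in WT (adjusted p = 0.193). Neither gene overlapped between the groups, and both were of low abundance. Of the 11 genes, 2 lay above WT without overlap and 1 below, beside 13.6% and 14.4% of all genes. Unadjusted, 11.6% of all genes were higher and 10.4% lower, and DESeq2 called 7.06% and 6.05%.

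Of 18 genes of the p53 pathway, 1 rose, 1 fell and 16 did not pass edgeR's test, with a median log2 fold change of 0.26. At an unadjusted p below 0.05, 6 were higher and 2 lower, DESeq2 called 3 and 2, and limma-voom 1 and 1. The shares over all genes were 11.6% and 10.4% unadjusted, 7.06% and 6.05% in DESeq2, and 1.34% and 1.62% in limma-voom. At edgeR's adjusted p they were 1.64% higher and 1.92% lower. Sesn1, which restrains mTORC1, rose to 106, 99.7 and 93.8 CPM in KO, against 68.5, 68.1 and 76.3 CPM in WT (log2 fold change 0.49 ± 0.09, SE; adjusted p = 0.0381). Perp, a membrane protein induced in p53-driven death, fell to 3.29, 1.13 and 2.16 CPM in KO, against 21.9, 10.3 and 12.8 CPM in WT (log2 fold change −2.77 ± 0.47, SE; adjusted p = 0.0318). Trp53 itself was at 397 to 448 CPM in KO and 396 to 441 CPM in WT. The call of Sesn1 was lost whichever library was left out (adjusted p between 0.0650 and 0.128) and without a scaling factor, and that of Perp without any library but KO2 (up to 0.113).

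Of 16 transcription factors known to act on these genes, E2f1 rose, Egr1 fell and 14 did not pass, with a median log2 fold change of 0.10. At an unadjusted p below 0.05, 5 were higher and 2 lower (11.6% and 10.4% of all genes). DESeq2 called 3 and 2 (7.06% and 6.05%), and limma-voom 0 and 1 (1.34% and 1.62%). At its adjusted p edgeR called 1.64% of all genes higher and 1.92% lower. E2f1, which drives replication genes, was at 90.9, 67.0 and 95.1 CPM in KO, against 44.1, 52.4 and 49.6 CPM in WT (log2 fold change 0.79 ± 0.15, SE; adjusted p = 0.0425 in edgeR). Egr1, an immediate early factor, was at 29.7, 29.9 and 27.6 CPM in KO, against 165, 77.3 and 128 CPM in WT (log2 fold change −2.09 ± 0.26, SE; adjusted p = 0.0165 in edgeR). The call of E2f1 held only without KO2 among fits that left out 1 library (adjusted p up to 0.156) and was lost with limma-voom, and that of Egr1 was lost without KO1, KO3 or WT3 (up to 0.0695). Chosen after its values were seen because its motif is shown above, Foxo3 was at 50.7, 29.6 and 53.5 CPM in KO, against 20.4, 29.1 and 27.2 CPM in WT (adjusted p = 0.126).

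Of 19 genes for partners and turnover of the proteins, 0 passed (4 higher and 3 lower at an unadjusted p below 0.05, 2 and 2 in DESeq2, 0 in limma-voom; median log2 fold change 0.12). Usp9x, the X-linked enzyme that removes ubiquitin from MCL1, was at 118, 105 and 128 CPM in KO, against 88.4, 94.0 and 87.6 CPM in WT (adjusted p = 0.0767). Vdac2, the channel that holds BAK at the mitochondrion, was at 212, 220 and 220 CPM in KO, against 243, 293 and 280 CPM in WT (adjusted p = 0.0915). Neither overlapped between the groups. Of the 19 genes, 3 lay above WT without overlap and 3 below, beside 13.6% and 14.4% of all genes. Unadjusted, 11.6% of all genes were higher and 10.4% lower, and DESeq2 called 7.06% and 6.05%.

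**Figure D5:**
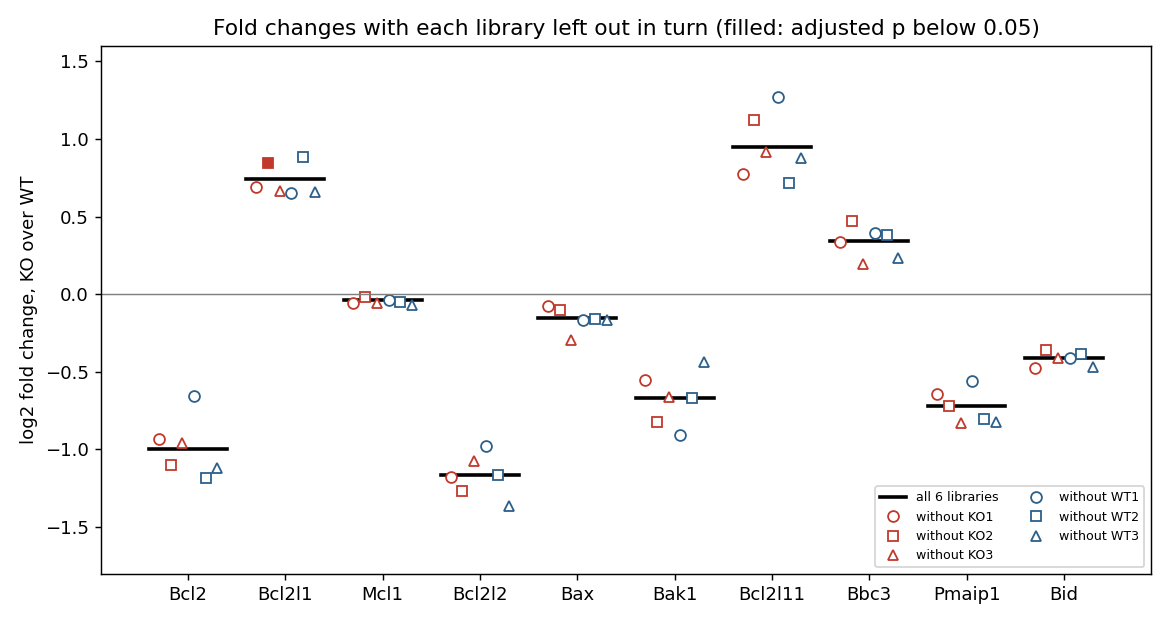
Log2 fold change, KO over WT, of each member with all 6 libraries (black line) and with each library left out (symbols; filled where the adjusted p was below 0.05). No member changed sign in these 6 fits; Bcl2l1 without KO2 is the single filled symbol, and Bcl2 moved most without WT1, to −0.65.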

How the data were processed

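RNA was extracted from sorted leukaemia cells, amplified as cDNA with SMARTer Ultra Low Input chemistry and made into libraries with Nextera XT, per the labels' protocols. These kits are known to mark neither strand nor single molecules. The values are whole-number read counts per gene symbol, deposited in a single table; featureCounts, Subread 2.0.1, STAR 2.7.9a and fastp 0.23.1 are named per the submitters' processing notes, and their settings, genome build and annotation were not given in any source used here.

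Genes were filtered with filterByExpr (minimum count 10, minimum total 15), scaled by TMM and compared by edgeR 4.0.16 (R 4.3.3) with the robust quasi-likelihood F test, KO over WT, with no covariate, Benjamini-Hochberg adjustment over 15232 genes and a threshold of 0.05. The SE is the log2 fold change divided by the root of F. The fitting code was tested on simulated data. DESeq2 1.42.0 and limma-voom (limma 3.58.1) were alternatives, beside other scalings and filters, the replicate number as a block, and each library left out.

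The members and lists were chosen with earlier results of these data known. Named genes were the 10 members; every called gene of each pathway list (at most 6), or the 2 with the smallest p; and the 3 genes most correlated with each called member. Lengths, overlaps and transcripts come from GENCODE M21 (GRCm38), and promoter windows from RefSeq (GRCm38.p6). March5, the older symbol of Marchf5, and Ahsp had no row.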

Additional observations from a re-analysis of the deposited data

How the results depend on the processing

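Calls among the members depended on the settings, and signs did not: in 14 alternative fits each of the 10 members kept the direction of its log2 fold change. Members called higher in KO numbered 0 with RLE size factors, 0 with limma-voom and 2 with DESeq2; members called lower numbered 1 with no low-count filter, 1 where a gene needed 1 CPM in 3 or more libraries and 4 with DESeq2. Over all genes DESeq2 called 1075 higher and 920 lower, against 250 and 293 in edgeR. Leaving out each library gave 0 to 1 member higher and 0 to 0 lower, with 13 to 371 genes higher and 29 to 247 lower. By library left out, higher and lower genes numbered 47 and 63 (KO1), 371 and 247 (KO2), 38 and 53 (KO3), 108 and 148 (WT1), 68 and 128 (WT2) and 13 and 29 (WT3); the cause was not tested, beyond the fit having fewer samples. The replicate numbers are not said to pair the libraries, and deviations of same-numbered libraries correlated at 0.06, −0.14 and −0.07; with the replicate number as a block, 8 genes were higher and 20 lower and 0 members were higher, a fit with fewer residual degrees of freedom. Depth limits Bcl2l2 and Bak1 most, since they had the fewest counts of the members.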
